A study of Homo sapiens with 12 samples.

Results

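Small nucleolar RNAs (snoRNAs) and small Cajal body RNAs (scaRNAs) were followed through an RNA immunoprecipitation experiment on the RNA-binding protein Arid5a. The set held 10 genes, chosen by a list of Ensembl identifiers: SNORD3A, SNORD118, SNORD13, SNORD17, SNORA73B, SNORA53, SCARNA2, SCARNA7, SCARNA10 and SCARNA12. All 10 were rows of the deposited tables, which hold 60708 features. HK2, an established human kidney epithelial line, was the only cell type. Every culture, controls included, received 10 µg of plasmid encoding FLAG-tagged human Arid5a, so no group lacked the transgene. The groups were FLAG antibody with IL-17, mouse IgG1 with IL-17, FLAG antibody with medium and mouse IgG1 with medium, with 3 libraries each. IL-17, an inflammatory cytokine, was given at 200 ng/mL, and both treatments lasted 3 h. The study asked which transcripts Arid5a binds, which sets FLAG against IgG, and the treatment arms ask whether IL-17 alters the recovered RNA. The labels do not say that replicates came from separate cultures. Every p-value therefore reflects the spread among these libraries alone, which may be technical.

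Box C/D and H/ACA snoRNAs are short, stable, structured nuclear RNAs that base-pair with precursor ribosomal RNA and guide its cleavage, its ribose methylation or its conversion of uridine to pseudouridine. ScaRNAs are built alike but lie in Cajal bodies, where they direct modification of the spliceosomal RNAs. Most are cut from introns of host genes and carry no poly(A) tail. The labels name a low-input full-length cDNA kit, a type that primes on poly(A) tails. How far that choice shaped the values was not tested.

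By RefSeq (GRCh38.p14), SNORD3A (ENSG00000263934.5) lies at chr17:19188016-19188232 and overlaps no other gene span, SNORD118 (ENSG00000200463.1) at chr17:8173452-8173588 within the span of TMEM107, and SNORD17 (ENSG00000212232.1) at chr20:17962710-17962946 within that of SNX5. SNORA73B (ENSG00000200087.1) at chr1:28508558-28508762 lies within the spans of SNHG3 and RCC1, and SNORA53 (ENSG00000212443.1) at chr12:98599635-98599884 within that of SLC25A3. SCARNA7 (ENSG00000238741.1) at chr3:160514907-160515236 overlaps KPNA4, SCARNA10 (ENSG00000239002.3) at chr12:6510222-6510551 overlaps NCAPD2, and SCARNA12 (ENSG00000238795.1) at chr12:6967337-6967606 overlaps PHB2. SCARNA2 (ENSG00000270066.3) at chr1:109100193-109100612 overlaps no other gene span. RefSeq lengths were 104 bases for SNORD13 (ENSG00000239039.1), 137 for SNORD118, 205 for SNORA73B, 217 for SNORD3A, 237 for SNORD17, 250 for SNORA53, 270 for SCARNA12, 330 for SCARNA7 and SCARNA10, and 420 for SCARNA2. The reference table pairs no Ensembl identifiers with symbols, so host genes, other snoRNAs, snoRNP proteins and kidney epithelial markers were not analysed here. RefSeq also lists SNORA73A, a near copy of SNORA73B with 207 bases, at chr1:28507365-28507571. Whether counting used strand is not stated, so reads of host transcripts across a snoRNA, or of a near copy, cannot be told apart from its own.

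Library totals ran from 13653406 to 17723136 estimated counts in FLAG IL-17, 5365495 to 15837845 in IgG IL-17, 2402395 to 7563477 in FLAG medium and 746911 to 6118339 in IgG medium. Of the 6 IL-17 libraries, 5 were deeper than every medium library, so depth and treatment cannot be told apart in the levels. In these bulk samples, fewer cells and less RNA per cell cannot be told apart either. Thinned in expectation to 740000 counts, IgG IL-17 replicate 1, IgG medium replicate 2 and FLAG medium replicate 1 would hold 31915, 25661 and 24902 features, against 9821 to 21262 in the other 9 libraries. These 3 and IgG medium replicate 1, the shallowest library, stood apart, and several results that rest on them are also given with these 4 left out. IgG medium is then down to 1 library, whose variance is borrowed from the remaining groups.

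The 10 RNAs took 1.18% to 4.65% of all counts in FLAG IL-17, 1.51% to 4.26% in IgG IL-17, 0.406% to 1.27% in FLAG medium and 0.311% to 2.47% in IgG medium. The description as abundant held for 7 of them, each of which ranked within the first 539 of 60708 features by count in every library. SNORA73B was the highest, ranking between 3 and 60. The best rank by count was 1777 for SNORD13, 2948 for SNORD118 and 9642 for SCARNA2.

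Counts divided by RefSeq length gave the order of levels per base. The median over 12 libraries was 3812 counts scaled to a total of 1000000 (CPM) per 100 bases for SNORA73B, 986 for SNORA53 and 622 for SNORD17. SCARNA10 and SNORD3A both stood at 283, SCARNA12 at 203 and SCARNA7 at 199, and these 4 overlapped across libraries. SNORD3A was above SNORD17 in IgG IL-17 replicate 1, at 1763 against 948 CPM. Its value per base uses 217 RefSeq bases, while count over TPM gave it a median of 3.34 times the length of SCARNA7. SNORD13 at 9.27, SNORD118 at 5.44 and SCARNA2 at 0.188 were far lower. By the deposited TPM the top of the order was the same, with medians of 20371 TPM for SNORA73B, 4062 for SNORA53 and 2573 for SNORD17. SNORD13, however, stood at a median of 451 TPM, above SNORD3A with 145 TPM.

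Levels below are CPM scaled with TMM composition factors (normalised CPM), listed by replicate in the order 1, 2, 3. SNORD3A, the U3 RNA required for early cleavages of the ribosomal RNA precursor, had 476, 1310 and 1206 normalised CPM in FLAG IL-17 and 1163, 1256 and 1244 in IgG IL-17. In medium it had 259, 246 and 444 in FLAG and 1497, 294 and 251 in IgG. All 6 IL-17 libraries lay above 5 of the 6 medium libraries, and IgG medium replicate 1 was the highest of all. Counts of SNORD3A had a decimal part as deposited, here called not whole, in 12 of 12 libraries, so reads were divided with other features; RefSeq lists SNORD3B-1, SNORD3B-2, SNORD3C and SNORD3D with the same length of 217 bases.

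SNORD118, the U8 RNA needed for maturation of the large-subunit ribosomal RNAs, was scarce. It had estimated counts of 98.7, 128 and 202 in FLAG IL-17, 54.2, 251 and 339 in IgG IL-17, 12.04, 2.24 and 24.02 in FLAG medium and 21.1, 5.04 and 9.37 in IgG medium. No count of SNORD118 was whole. SNORD13, the U13 RNA that assists acetylation of the small-subunit ribosomal RNA, had 72, 128 and 173 counts in FLAG IL-17, 47, 169 and 203 in IgG IL-17, 80, 52 and 104 in FLAG medium and 34, 58 and 28 in IgG medium. Its counts thus spanned a narrower range than the depths of the libraries, and its normalised CPM was highest, at 72.1, in the shallowest library.

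SNORD17, a box C/D guide for methylation of the large-subunit ribosomal RNA, had 856, 1396 and 4686 normalised CPM in FLAG IL-17 and 625, 2526 and 3898 in IgG IL-17. In medium it had 932, 433 and 1605 in FLAG and 6847, 261 and 1566 in IgG. The groups overlapped for SNORD17 in each comparison of antibody or treatment.

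SNORA73B, the U17 RNA, is an H/ACA snoRNA that takes part in cleavage of the ribosomal RNA precursor. It had 6901, 11648 and 49045 normalised CPM in FLAG IL-17, against 1525, 1013 and 5418 in FLAG medium. With IgG it had 5652, 20348 and 39072 in IL-17, against 17251, 651 and 3475 in medium. The FLAG arms did not overlap, and the IgG arms overlapped through IgG medium replicate 1. SNORA53, an H/ACA RNA, had 1521, 2906 and 11822 normalised CPM in FLAG IL-17, 1442, 5199 and 12110 in IgG IL-17, 964, 592 and 3086 in FLAG medium and 8481, 456 and 2424 in IgG medium.

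Among the scaRNAs, SCARNA7 had 709, 1413 and 2342 normalised CPM in FLAG IL-17, 331, 809 and 1060 in IgG IL-17, 230, 249 and 610 in FLAG medium and 1371, 145 and 375 in IgG medium. SCARNA10, which carries both box C/D and H/ACA elements and guides modification of a spliceosomal RNA, had 722, 1367 and 4568 in FLAG IL-17, 477, 1149 and 2375 in IgG IL-17, 260, 304 and 1178 in FLAG medium and 1933, 178 and 817 in IgG medium. SCARNA12, which also carries both kinds of box and whose counts were not whole in any library, had 349, 665 and 2170 in FLAG IL-17, 247, 709 and 1164 in IgG IL-17, 179, 197 and 787 in FLAG medium and 1558, 158 and 524 in IgG medium. Replicate 3 was the highest library for SCARNA7, SCARNA10 and SCARNA12 in FLAG IL-17, IgG IL-17 and FLAG medium, and replicate 1 was in IgG medium.

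SCARNA2, a box C/D scaRNA, had 82.2, 87.0 and 27.9 estimated counts in FLAG IL-17, 60.8, 0 and 91.0 in IgG IL-17, 0, 27.0 and 0 in FLAG medium and 0 in every IgG medium library. At 3 counts, a limit for counting error alone, these zeros permit as much as 0.290 CPM in IgG IL-17 replicate 2 and 4.02 CPM in IgG medium replicate 1. The limits of the 3 IgG medium libraries averaged 1.77 CPM. Against that, the mean of 5.69 ± 5.66 CPM (SD, n = 3) in IgG IL-17 was 3.22-fold higher. This is no lower bound on the fold, since 1 of the IgG IL-17 libraries was itself at 0. FLAG medium averaged 1.19 ± 2.06 CPM (SD, n = 3), below that limit, so no fold over IgG medium is given.

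**Figure D1:**
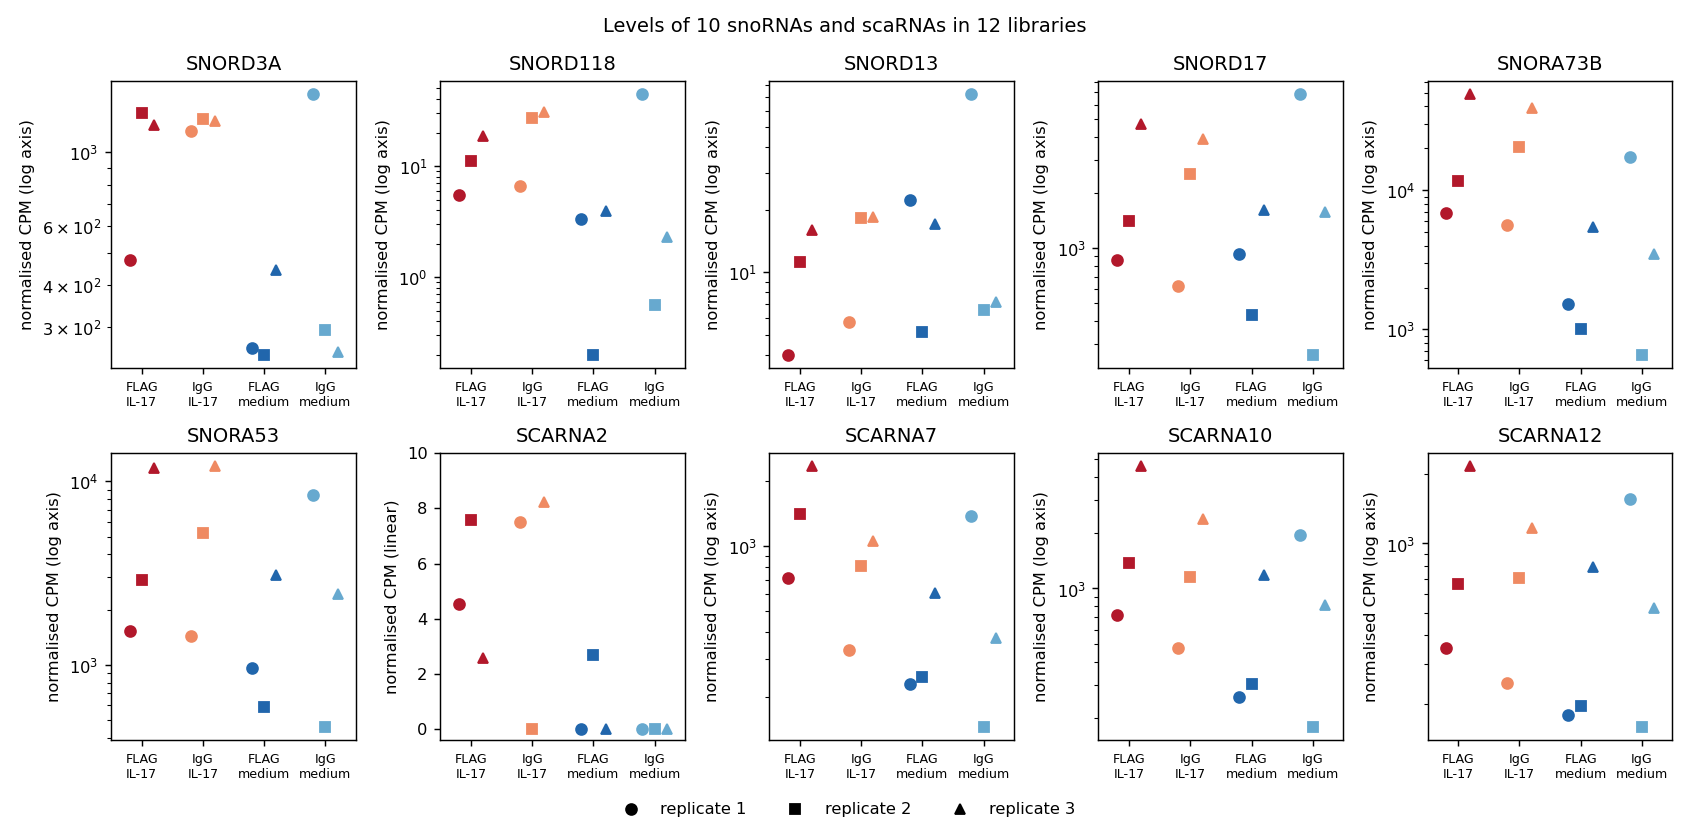
Normalised CPM of each RNA in each library (log axes, linear for SCARNA2), by group on the horizontal axis, with 1 point per library and replicate numbers as symbols. IgG medium replicate 1 sits apart from the other IgG medium libraries for every RNA except SCARNA2, which is at 0 in all 3.

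None of the 10 snoRNAs and scaRNAs was called higher or lower with FLAG antibody than with IgG, in IL-17 or in medium. In IL-17, 0 of 10 were called by edgeR's quasi-likelihood test (Benjamini-Hochberg adjusted p under 0.05), where 0.0% of the 24040 features tested were called higher and 0.0% lower. All 10 members passed the filter on low counts. At an unadjusted p under 0.05, edgeR found 0 members higher and 0 lower, against 0.566% and 2.25% of all features, and DESeq2 and limma also called 0 members. Of all features in IL-17, DESeq2 called 1 higher and 8 lower, and limma on log2(TPM + 1) called 1 higher and 0 lower. FLAG and IgG libraries overlapped for all 10 members, whereas 14.6% of all features were higher and 12.3% lower without overlap. Fitted values were above 0 for 4 of 10 members and for 39.8% of all features, with a median log2 fold change of -0.06 for the members and -0.33 for all features. It was -0.19 over the tested features whose apparent length, count over TPM, was no longer than that of SCARNA7.

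Of the 10, the 3 abundant scaRNAs had the highest fold changes of FLAG over IgG in IL-17. SCARNA7 averaged 1488 ± 819 normalised CPM in FLAG IL-17 and 733 ± 370 in IgG IL-17 (SD, n = 3 each), a log2 fold change of 1.02 ± 0.72 (SE, edgeR adjusted p = 0.923). The log2 fold changes were 0.73 ± 0.81 (SE) for SCARNA10 and 0.59 ± 0.79 (SE) for SCARNA12. SNORA73B averaged 22531 ± 23084 normalised CPM in FLAG IL-17 and 21691 ± 16750 in IgG IL-17 (SD, n = 3 each), a log2 fold change of 0.05 ± 0.99 (SE). Except for SCARNA7, each of these fold changes was smaller than its SE, and FLAG and IgG libraries overlapped for each of these RNAs.

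In medium, 0 of 10 were called by edgeR, DESeq2 or limma in FLAG over IgG, where edgeR called 0.0% of all features in either direction. DESeq2 called 93 of the 24040 features higher and 47 lower, and limma called 0. At an unadjusted p under 0.05, edgeR found 0 members in either direction, against 4.17% of all features higher and 2.4% lower. FLAG and IgG overlapped for all 10, while 5.07% of all features were higher and 1.11% lower without overlap. Fitted values were above 0 for 1 of 10, SCARNA2, and for 58.4% of all features, with a median of -1.02 for the members and 0.20 for all features. Over the features no longer than SCARNA7 by apparent length the median was -1.36. SNORD118 had a log2 fold change of -2.44 ± 1.19 (SE, edgeR adjusted p = 0.757). The negative sign rested on IgG medium replicate 1. With that library left out, values were above 0 for 10 of 10, with a median of 0.49, and SNORD118 stood at 1.12. With all 4 outlying libraries left out, 7 of 10 were above 0, with a median of 0.04 against 1.06 for all features. The change of FLAG over IgG with IL-17 gave 0 calls of 10 by edgeR, DESeq2 and limma, where edgeR called 0.0% of all features, DESeq2 called 12 features upward and 96 downward, and limma called 0. At an unadjusted p under 0.05 edgeR found 0 members, against 1.07% of features upward and 6.28% downward. Fitted values were above 0 for 9 of 10 members and 39.1% of all features. The median was 1.48 for the members, -0.52 for all features and 1.34 for features no longer than SCARNA7 by apparent length. SCARNA7 stood at 1.81 ± 1.01 (SE, edgeR adjusted p = 0.706). Without IgG medium replicate 1 only 3 of 10 were above 0, and SCARNA7 stood at 0.22.

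With IL-17, normalised CPM of most of these RNAs was higher on average than with medium in FLAG libraries, SNORA73B by the widest margin, but no difference passed adjustment. In FLAG libraries 0 of 10 members were called by edgeR, DESeq2 or limma, where edgeR called 0.22% of all features higher and 0.00416% lower. DESeq2 called 160 of the 24040 features higher and 869 lower, the opposite balance to edgeR with 53 and 1, and limma called 5 and 1. Without adjustment, at p under 0.05, edgeR found 4 members higher and 0 lower, against 3.05% and 7.86% of all features. These were SNORA73B, SCARNA7, SNORD3A and SCARNA10. Libraries did not overlap for SNORD3A, SNORD118, SNORA73B and SCARNA7, which were higher with IL-17; this holds for 17.3% of all features, and 11% were lower without overlap. Fitted values were above 0 for 9 of 10 members and 43.7% of all features, with a median log2 fold change of 1.87 for the members and -0.29 for all features. The median was 2.03 over the tested features with an apparent length no longer than that of SCARNA7, of which 14.8% were called higher.

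SNORA73B had the highest log2 fold change, 3.09 ± 1.07 (SE, edgeR adjusted p = 0.457), with a mean of 22531 ± 23084 normalised CPM in FLAG IL-17 against 2652 ± 2409 in FLAG medium (SD, n = 3 each). SCARNA7 had 2.04 ± 0.74 (SE) and SCARNA10 1.93 ± 0.84 (SE). SNORD3A averaged 997 ± 455 normalised CPM in FLAG IL-17, against 316 ± 111 in FLAG medium (SD, n = 3 each), a log2 fold change of 1.66 ± 0.67 (SE). SNORD13 was the exception, at -0.51 ± 0.82 (SE, edgeR adjusted p = 0.770). Without the filter on low counts edgeR called 3 members higher, SNORA73B, SCARNA7 and SCARNA10, with adjusted p of 2.93e-06, 0.0310 and 0.0498. That fit called 137 of 48364 features higher and 91 lower.

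In IgG libraries 0 of 10 members were called by edgeR, DESeq2 or limma, where edgeR called 0.0125% of all features higher and 0.0% lower. DESeq2 called 122 of the 24040 features higher and 196 lower, and limma called 3 and 0. Without adjustment, at p under 0.05, edgeR found 1 member higher, SCARNA2, and 0 lower, against 3.79% and 1.78% of all features. IL-17 and medium libraries overlapped for all 10, while 9.69% of all features were higher and 1.93% lower without overlap. Fitted values were above 0 for 7 of 10 members and 57.2% of all features. The median was 0.58 for the members, 0.18 for all features and 0.78 for features no longer than SCARNA7 by apparent length. The log2 fold change was 1.61 ± 1.02 (SE) for SNORA73B, 0.85 ± 0.66 (SE) for SNORD3A and -0.30 ± 0.87 (SE) for SNORD17. IgG medium replicate 1 decided several of these values. Without it all 10 were above 0, with a median of 1.75 against -0.05 for all features, and SNORA73B stood at 3.38. With the 4 outlying libraries left out, SNORD3A was called, at 2.43 ± 0.58 (SE, edgeR adjusted p = 0.0302), in a fit that called 1037 of 24025 features higher and 404 lower and had a median over all features of 1.31.

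**Figure D2:**
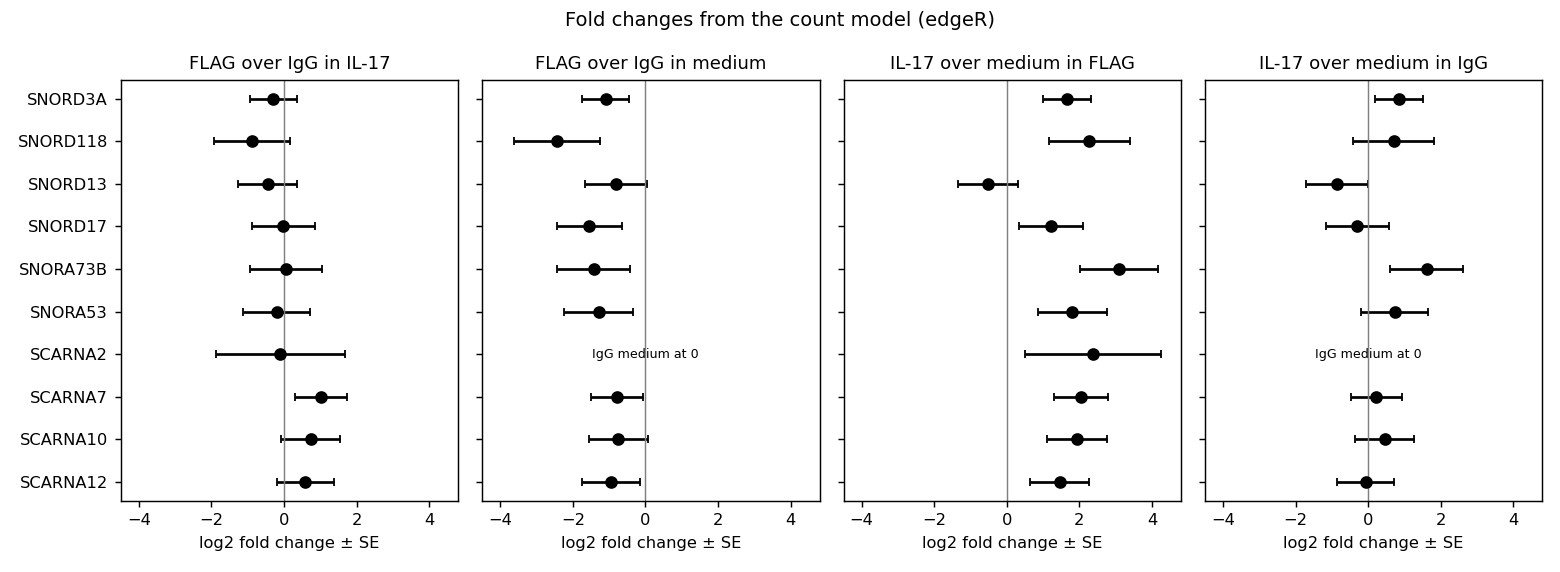
Log2 fold changes with their standard errors from the edgeR model for each RNA, with 1 panel per comparison. FLAG over IgG values lie around 0 in IL-17, and IL-17 over medium values lie above 0 in FLAG libraries for every RNA except SNORD13.

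Ratios between members within a library need no scaling to depth, and several spanned a narrower range within a group than the levels did. They were formed among the 7 members with at least 100 counts in every library, a comparison chosen after the data were seen. This gave 21 pairs, each tested for IL-17 against medium and for FLAG against IgG, with an exact two-sided permutation test of the mean log2 ratio that shuffled treatment within antibody, or antibody within treatment. With 400 arrangements the smallest p is 0.005, and Benjamini-Hochberg adjustment ran over all 42 tests. The 5 ratios that passed tied at this smallest p, and their adjusted p hangs on that tie. Ratios that share a member are not independent, and SNORA73B is in all that passed except SCARNA10 to SCARNA12. The test takes FLAG and IgG libraries as separate samples, which the labels do not state. Within 1 antibody, 3 libraries against 3 cannot give a p below 0.1.

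SNORA73B rose relative to SNORD17, SNORA53, SCARNA10 and SCARNA12 with IL-17, with either antibody. Its ratio to SNORD17 was 8.06, 8.34 and 10.5 in FLAG IL-17, against 1.64, 2.34 and 3.38 in FLAG medium. With IgG it was 9.04, 8.05 and 10.0 in IL-17, against 2.52, 2.49 and 2.22 in medium. Each of the 6 IL-17 libraries was above each of the 6 medium libraries, by 3.77-fold on average (exact permutation p = 0.005, adjusted p = 0.042). The log2 difference was 1.92 within FLAG libraries and 1.90 within IgG libraries. Counts of SNORD17 were whole in all 12 libraries, and 1 library had a count of SNORA73B that was not whole, so the authors' counting divided few reads of this pair with other features.

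The ratio of SNORA73B to SNORA53, both H/ACA RNAs, was 4.54, 4.01 and 4.15 in FLAG IL-17, against 1.58, 1.71 and 1.76 in FLAG medium. With IgG it was 3.92, 3.91 and 3.23 in IL-17, against 2.03, 1.43 and 1.43 in medium. This was a 2.39-fold difference (exact permutation p = 0.005, adjusted p = 0.042). Relative to SCARNA12, SNORA73B was 3.52-fold higher with IL-17, at 17.5 to 33.6 in IL-17 libraries and 4.12 to 11.1 in medium libraries. Relative to SCARNA10 it was 2.50-fold higher, at 8.52 to 17.7 in IL-17 libraries and 3.33 to 8.92 in medium libraries, which overlap. Both ratios had an exact permutation p of 0.005 and an adjusted p of 0.042. Its ratio to SCARNA7 was 2.44-fold higher but overlapped between treatments (exact permutation p = 0.01, adjusted p = 0.06).

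The fifth ratio that passed was SCARNA10 to SCARNA12, at 2.07, 2.06 and 2.10 in FLAG IL-17, against 1.45, 1.54 and 1.5 in FLAG medium. With IgG it was 1.93, 1.62 and 2.04 in IL-17, against 1.24, 1.13 and 1.56 in medium, a mean difference of 1.41-fold (exact permutation p = 0.005, adjusted p = 0.042). The groups did not overlap, though 1.62 in IgG IL-17 replicate 2 and 1.56 in IgG medium replicate 3 lay close together. Counts of SCARNA12 were not whole in any library, so the ratios to it include reads divided with other features. SNORD17 to SNORA53 was lower with IL-17, by 0.65 on the log2 scale, without passing (exact permutation p = 0.01, adjusted p = 0.06).

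Depth moved with treatment, and its part in these ratios was not tested. IgG IL-17 replicate 1, with 5365495 counts and a ratio of SNORA73B to SNORD17 of 9.04, was the only IL-17 library with medium libraries deeper than it. Those were FLAG medium replicates 2 and 3 and IgG medium replicate 2, with ratios of 2.34, 3.38 and 2.49. With the 4 outlying libraries left out, the log2 difference between IL-17 and medium for SNORA73B to SNORD17 was 1.84. IgG medium then held 1 library, and too few arrangements remained for the permutation test to decide on any of the 5 ratios. IgG medium replicate 1, the outlying library for levels, had a ratio of 2.52, within the range of the other medium libraries. Leaving out any 1 of the 12 libraries kept all 5 differences above 0, and the adjusted p of the 5 then ran from 0.035 to 0.084, with 200 arrangements in place of 400 (exact permutation test). It was above the threshold for all 5 ratios without any IgG IL-17 library or without IgG medium replicate 2, and for SCARNA10 to SCARNA12 without IgG medium replicate 1. Whether library preparation coincided with treatment is not given in the labels, so batch and treatment cannot be told apart for these ratios.

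For FLAG against IgG, 0 of the 21 ratios passed. The smallest exact permutation p was 0.05 (adjusted p = 0.194), for SNORA53 to SCARNA10, at 2.11, 2.13 and 2.59 in FLAG IL-17 and 3.02, 4.52 and 5.10 in IgG IL-17. In medium that ratio was 3.71, 1.95 and 2.62 in FLAG and 4.39, 2.56 and 2.97 in IgG. The IL-17 arms did not overlap and the medium arms did.

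Several ratios followed the replicate number, with replicate 3 at the same extreme in each group. Among them were SCARNA7 to SCARNA12, SNORA53 to SCARNA7, every ratio with SNORD3A, and SCARNA7 to SCARNA10, given here. SCARNA7 to SCARNA10 was 0.513 in FLAG IL-17, 0.446 in IgG IL-17, 0.518 in FLAG medium and 0.459 in IgG medium for replicate 3. In replicates 1 and 2 it was 0.982 and 1.03 in FLAG IL-17, 0.694 and 0.704 in IgG IL-17, 0.885 and 0.818 in FLAG medium and 0.709 and 0.815 in IgG medium. Replicate 3 was thus below the others in each of the 4 groups. Counts of both RNAs were whole in all 12 libraries. This was noticed in the data and was not tested.

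**Figure D3:**
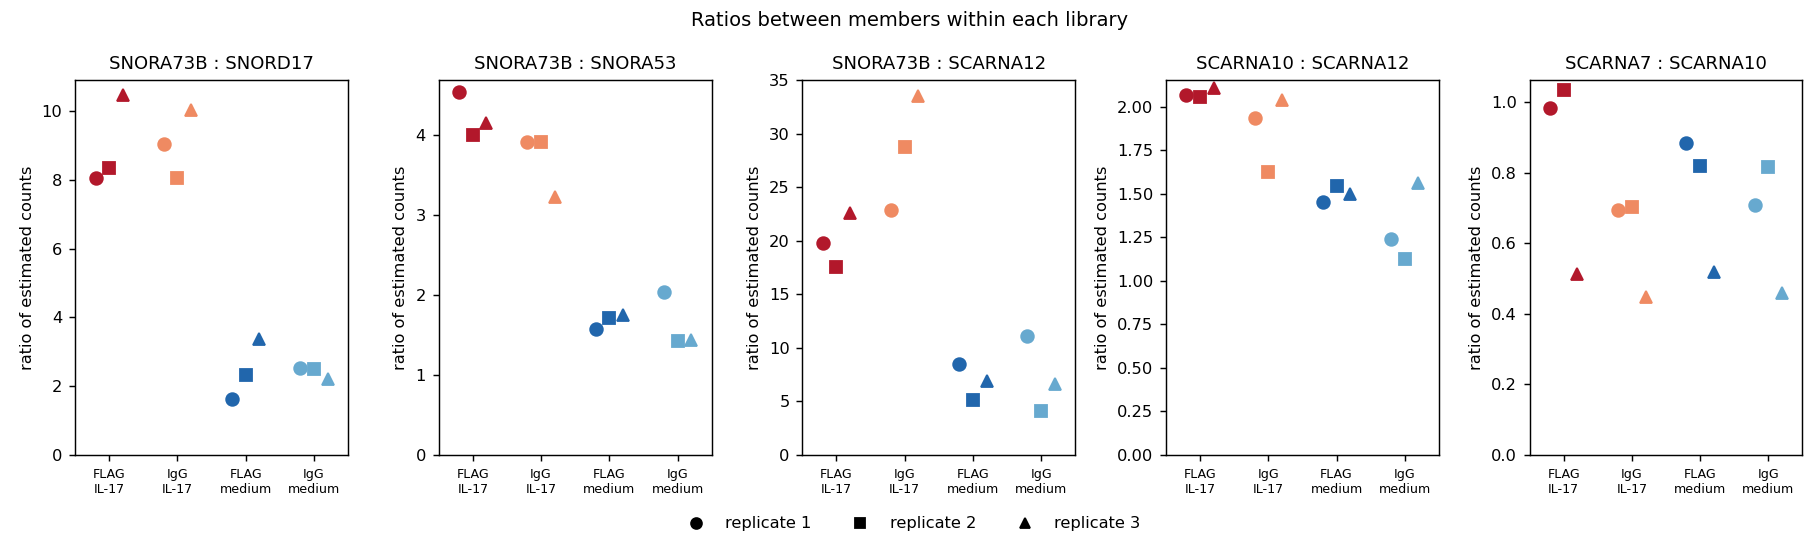
Ratios of estimated counts of 2 RNAs within a library (linear axes from 0), by group on the horizontal axis, with 1 point per library and replicate numbers as symbols. The first 4 panels separate IL-17 from medium libraries with either antibody, SNORA73B to SNORD17 at 8.05 to 10.5 against 1.64 to 3.38, and the last panel separates replicate 3 from replicates 1 and 2.

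The features whose log2 normalised CPM followed the members' mean most closely over 12 libraries were ENSG00000221491.2 (Pearson r = 0.988) and ENSG00000222489.1 (Pearson r = 0.984), given as a description. Among the 5 most alike, r was 0.978 or higher, and their apparent lengths were 0.0310 to 0.0766 of that of SCARNA7. They share library depth and scaling with the members, and the tables used here do not name them.

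The deposited TPM gave another picture of the same RNAs. TPM carries no TMM scaling and divides each count by an effective length. That length, read as count over TPM relative to SCARNA7 in the same library, ran in the order of RefSeq length for 9 of the 10 RNAs. Its median over libraries was 0.00994 for SNORD13, 0.0520 for SNORD118, 0.287 for SNORA73B, 0.455 for SNORD17, 0.521 for SNORA53, 0.640 for SCARNA12, 1 for SCARNA10 and 1.59 for SCARNA2. SNORD3A was the exception, at 3.34 with a RefSeq length of 217 bases, above SCARNA7 and SCARNA10 with 330 bases.

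For the shortest RNAs this length was not the same in all libraries. SNORA73B stood at 0.274 to 0.318 of SCARNA7 in FLAG IL-17, 0.299 to 0.351 in IgG IL-17, 0.227 to 0.260 in FLAG medium and 0.215 to 0.329 in IgG medium. IgG medium replicate 1 was the medium library at 0.329, and the other 5 medium libraries lay below all IL-17 libraries. SNORD13 was listed at 0 TPM in 5 of 12 libraries despite counts of 80, 52 and 104 in FLAG medium and of 58 and 28 in IgG medium replicates 2 and 3. In the remaining medium library, IgG medium replicate 1, 34 counts became 2092 TPM. Between 14 and 48 features per library had at least 20 counts and a TPM of 0.

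**Figure D4:**
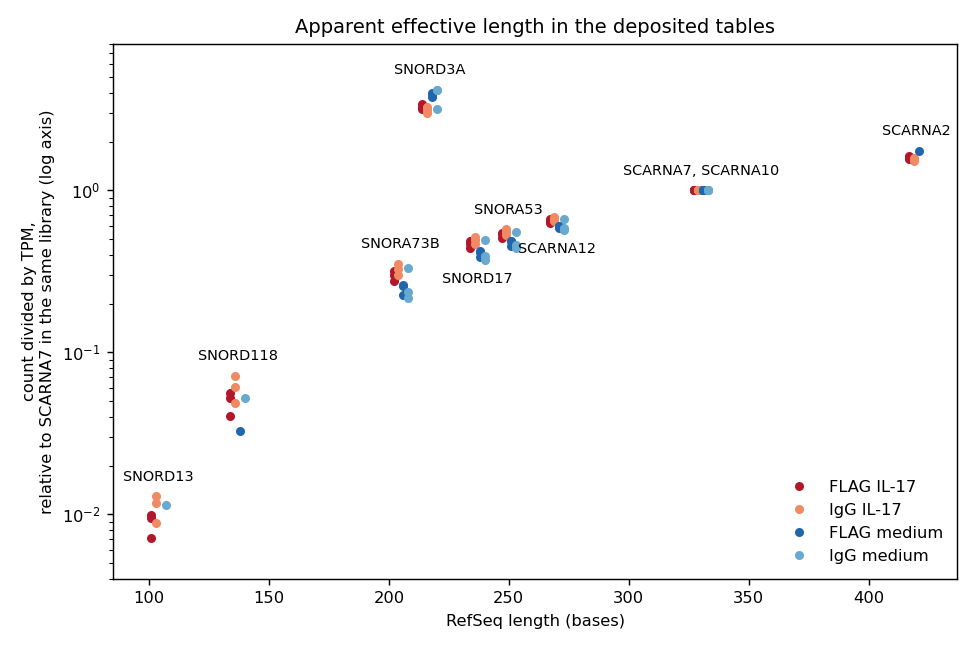
Count divided by TPM, relative to SCARNA7 in the same library (log axis), against RefSeq length in bases, with 1 point per library where the RNA had at least 20 counts and 0.2 TPM. The points climb with length apart from SNORD3A. For SNORA73B, SNORD17, SNORA53 and SCARNA12 most medium libraries lie below the IL-17 libraries, while SNORD13 and SNORD118 have few medium points.

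Signs of IL-17 over medium turned between edgeR on counts and limma on TPM, which differ in unit, scaling and model. With library size only in place of TMM, edgeR gave 1.01 for SNORD3A and 0.47 for SNORD17 in FLAG libraries. How much each difference contributed was not tested. In FLAG libraries SNORD17 had a log2 fold change of 1.22 by counts (edgeR) and -0.97 by limma on log2(TPM + 1), SNORA53 1.81 and -0.35, and SCARNA12 1.45 and -0.54. SNORD3A had 1.66 by counts and -0.0052 by TPM. SNORA73B kept its sign, at 3.09 and 0.88. In IgG libraries SCARNA7 had 0.22 and -0.44 and SNORA73B 1.61 and 0.85. Over the FLAG libraries, mean apparent length was higher with IL-17 by 0.60 on the log2 scale for SNORA73B, 0.53 for SNORD17, 0.34 for SCARNA7 and 0.11 for SNORD3A, relative to the median feature. The ratio of SNORA73B to SNORD17 was little moved, with a log2 difference between IL-17 and medium of 1.91 by counts and 1.82 by TPM.

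**Figure D5:**
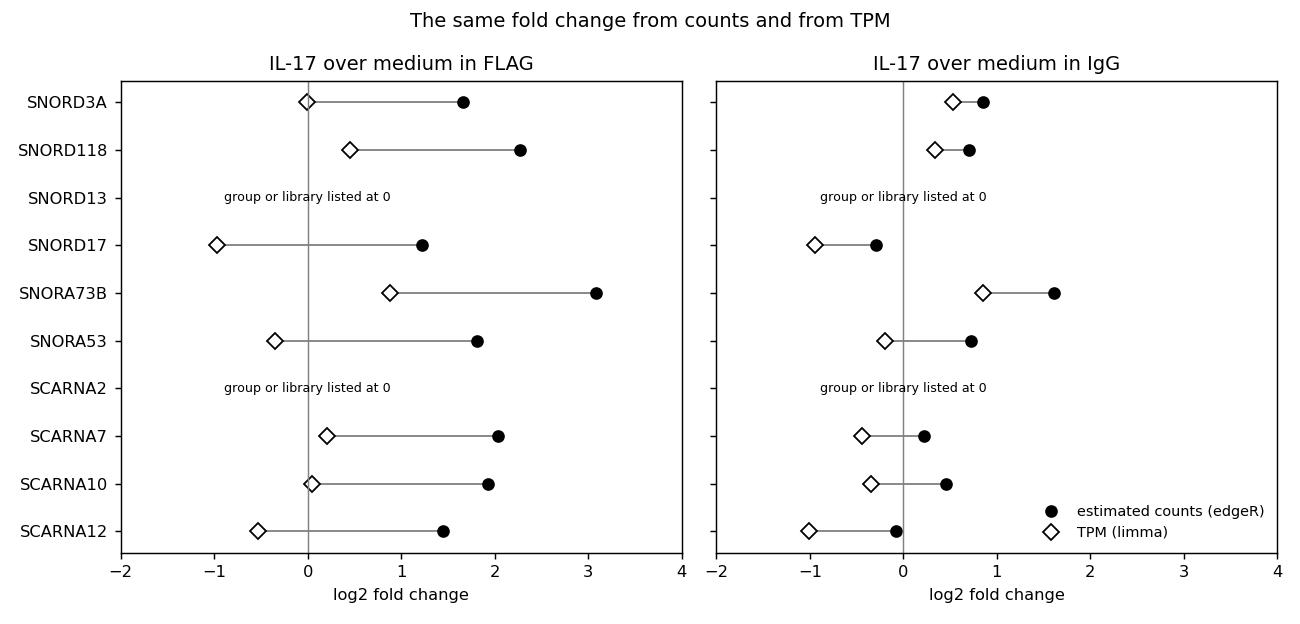
Log2 fold change of IL-17 over medium from estimated counts (filled circles, edgeR) and from TPM (open diamonds, limma on log2(TPM + 1)) for each RNA, with SNORD13 and SCARNA2 left out because libraries were listed at 0. In FLAG libraries every value is lower by TPM than by counts, and SNORD17, SNORA53, SCARNA12 and SNORD3A change sign.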

How the data were processed

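RNA immunoprecipitation libraries of HK2 cells were analysed from the deposited tables of estimated counts and of TPM. The tools listed, per the submitters' processing notes, were STAR (2.7.9), RSEM (1.3.1), DESeq2 (1.36.0) and R (4.2.0), with GRCh38 and hg38 as builds; their order and roles are not stated there. Values in the authors' other deposited table, labelled FPKM, are TPM: every column sums to 1000000. The authors' estimated counts were rounded and filtered with filterByExpr (minimum count 10). They were scaled by TMM and tested with edgeR 4.0.16 in R 4.3.3 over all 12 libraries, with 24040 features, a common dispersion of 0.953 and Benjamini-Hochberg adjustment over all features. SE is the log2 fold change over the square root of F. Alternatives were RLE factors, library size only, other filters, DESeq2 1.42.0, limma 3.58.1 on TPM with pseudocounts of 1 and 0.1, fits of only the groups compared, a replicate block and leaving out each library. The edgeR procedure alone was tried on simulated counts with large planted changes and a common dispersion. Smaller changes, outlying libraries and the permutation test were not simulated. Members and lists were chosen with earlier results of these data known, and all 10 members are named. Symbols came with the list of members and were matched to RefSeq by symbol; listed genes outside it, and any snoRNA sequence, were not used here, because the reference pairs 0 of the 60708 identifiers.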

Additional observations from a re-analysis of the deposited data

How the results depend on the processing

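Of 10 members, 0 were called in each of the 5 comparisons and in 112 of 114 alternative counts of calls, with 1 count per setting and comparison. The exceptions were IL-17 over medium in FLAG with no filter, 3 calls where 137 of 48364 features were called higher and 91 lower, and IL-17 over medium in IgG with the 4 outlying libraries left out, 1 call where 1037 of 24025 features were called higher and 404 lower. Leaving out any 1 library gave 0 calls in each comparison. A replicate block gave 0 calls. Same-numbered libraries correlated at -0.149 to 0.402 in their deviations from the group means, below 0.1 in all 4 pairs for replicates 1 and 2 but at 0.251, 0.270, 0.132 and 0.402 for replicate 3, so not every pair passed 0.1 and the numbers were not taken to pair samples. The ratios, leaving out the 4 libraries and the adjusted deviances were chosen after seeing the data. Low counts limit SCARNA2 and SNORD118, and the spread between libraries limits every fold change.

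Of single-member log2 fold changes, 60 of 508 alternative values and 45 of 564 with 1 library left out changed sign; none of the fold changes concerned had passed, and the cause was not tested. With the 4 libraries left out, FLAG over IgG in medium was 0.60 for SNORD3A, 0.76 for SNORD13, 0.032 for SNORA73B, 0.34 for SCARNA7, 0.0045 for SCARNA10 and 0.053 for SCARNA12. The change of FLAG over IgG was then -0.94 for SNORD3A, -1.20 for SNORD118, -1.61 for SNORD13, -0.037 for SNORD17, -0.47 for SNORA73B and -0.46 for SNORA53. IL-17 over medium in IgG was 1.47 for SNORD13, 1.15 for SNORD17 and 0.96 for SCARNA12, and FLAG over IgG in IL-17 was -0.44 for SNORA73B and 0.26 for SCARNA2.

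FLAG over IgG in IL-17 for SNORA73B was -0.15 with RLE factors, -0.21 with library size only, -0.11 with at least 50 counts in 3 libraries, -0.15 with DESeq2, -0.23 with the replicate block and -0.22 with limma on TPM. The change of FLAG over IgG for SNORD13 was -0.082 with RLE factors, -0.64 with library size only, -0.00090 with at least 50 counts in 3 libraries, -0.026 with DESeq2 and -0.36 with adjusted deviances, and that for SNORD3A was -0.21 with library size only. IL-17 over medium in IgG was -0.038 with RLE factors and -0.043 with DESeq2 for SCARNA7, and 0.065 for SCARNA12 with library size only.

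With limma on TPM, pseudocounts of 1 and 0.1 gave like values where 1 value is given below. Values of SCARNA2 moved more, at 0.55 and 2.09 for IL-17 over medium in FLAG. SNORD13 also moved more, at -3.68 and -4.78 for FLAG over IgG in medium. The change of FLAG over IgG was -0.54 for SNORD3A, -0.018 for SNORD17 and -0.15 for SNORA53, and FLAG over IgG in medium was 0.072 for SCARNA7. IL-17 over medium in FLAG was -0.0052 and -0.0055 for SNORD3A, 8.92 and 12.24 for SNORD13 (listed at 0 TPM in all 3 FLAG medium libraries), -0.97 for SNORD17, -0.35 for SNORA53 and -0.54 for SCARNA12. In IgG it was 5.68 and 7.90 for SNORD13, -0.20 for SNORA53, -0.44 and -0.45 for SCARNA7 and -0.35 for SCARNA10. FLAG over IgG in IL-17 for SCARNA2 was 0.48 with the pseudocount of 0.1 and -0.11 with that of 1.

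With 1 library left out, FLAG over IgG in IL-17 ran from -0.65 to 0.043 for SNORD3A, -1.16 to 0.37 for SNORD17, -1.32 to 0.54 for SNORA73B, -1.58 to 0.45 for SNORA53, -0.68 to 0.25 for SCARNA2, -0.46 to 1.17 for SCARNA10 and -0.59 to 1.004 for SCARNA12. FLAG over IgG in medium ran from -1.497 to 0.28 for SNORD3A, -3.12 to 1.12 for SNORD118, -1.33 to 1.33 for SNORD13, -2.09 to 0.42 for SNORD17, -2.49 to 0.57 for SNORA73B, -2.28 to 0.32 for SNORA53, -1.39 to 0.64 for SCARNA7, -1.79 to 0.39 for SCARNA10 and -1.98 to 0.32 for SCARNA12. The change ran from -0.80 to 1.21 for SNORD3A, -2.14 to 2.25 for SNORD118, -1.95 to 0.88 for SNORD13, -0.59 to 2.06 for SNORD17, -0.66 to 2.54 for SNORA73B and -0.66 to 2.08 for SNORA53. IL-17 over medium in FLAG ran from -0.22 to 1.76 for SNORD17. In IgG it ran from -1.39 to 0.89 for SNORD13, -0.96 to 1.361 for SNORD17, -0.26 to 2.09 for SNORA53, -0.25 to 1.45 for SCARNA7, -0.28 to 1.41 for SCARNA10 and -0.69 to 1.01 for SCARNA12.

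The 5 ratios that passed kept their sign in every alternative. By TPM all 5 had an adjusted p of 0.042 (exact permutation). With the 4 libraries left out the log2 differences were 1.84, 1.3, 1.65 and 1.98 for SNORA73B to SNORD17, SNORA53, SCARNA10 and SCARNA12, and 0.34 for SCARNA10 to SCARNA12. Too few arrangements then remained for the permutation test to decide on them. With 1 library left out the log2 differences ran from 1.78 to 2.04, 1.22 to 1.34, 1.19 to 1.52, 1.64 to 1.995 and 0.44 to 0.56 in that order.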
